A study of Mus musculus with 59 samples.

Results

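The genes described here are 9 genes of bile acid synthesis and transport in mouse liver: Cyp7a1, Cyp8b1, Cyp27a1, Baat, Slc10a1, Slco1b2, Slco1a4, Nr1h4 and Nr0b2. They were chosen by name, with earlier results of these data known, as the probe sets to which the array annotation gives 1 of these symbols alone. The 9 genes have 17 probe sets, of 45037 probe sets and 18193 named genes measured in all, and the brightest probe set of a gene, by its mean level across the 59 arrays, stands for it. Every value below is a log2 expression value of 1 probe set, so a difference of 1 is a doubling, and levels are compared between groups of arrays and never between genes. Liver RNA of male C57BL/6 mice was measured on 59 arrays. In the feeding experiment, mice ate AIN-76A, a diet of purified ingredients, or LRD-5001, a standard rodent chow, and for 5 weeks received no added arsenite, sodium arsenite at 10 or 100 ppb in the drinking water, or at 10 ppb in the food. In the injection experiment, all mice ate AIN-76A and were injected intraperitoneally with saline, with 1 mg/kg dexamethasone (a synthetic glucocorticoid), with 1 mg/kg sodium arsenite or with both agents, and the livers were collected 8 hours later. Mice were 6 weeks old when they began 2 weeks of acclimation to the diet. There were 12 groups of 5 arrays, but AIN-76A with 100 ppb in water had 4. Arrays are named by the replicate letters of the labels, where replicates of a group are described as biological. Whether an array held RNA of a single mouse is not given in the labels, so p-values reflect the variation among these samples.

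Bile acids are made from cholesterol in hepatocytes. In the classical pathway, Cyp7a1 carries out the first and rate-limiting hydroxylation and Cyp8b1 adds the hydroxyl group that makes cholic acid. Cyp27a1, a mitochondrial sterol hydroxylase, opens the alternative pathway and oxidizes the side chain, and Baat joins the finished acid to taurine or glycine. Slc10a1 (NTCP) is the sodium-dependent carrier that returns bile acids from portal blood to the hepatocyte, and Slco1b2 and Slco1a4 are sodium-independent organic anion carriers of the same membrane. Nr1h4 (FXR) is the nuclear receptor that senses bile acids, and Nr0b2 (SHP) is its target and a corepressor of Cyp7a1 and Cyp8b1.

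In the GRCm38.p6 mouse assembly (RefSeq), Cyp7a1 lies on chromosome 4 from 6265612 to 6275632, Cyp8b1 on chromosome 9 from 121914356 to 121916305, and Cyp27a1 on chromosome 1 from 74713148 to 74737897. Baat lies on chromosome 4 from 49489416 to 49507915 and Slc10a1 on chromosome 12 from 80953185 to 80968705. The carrier genes Slco1b2 and Slco1a4 lie on chromosome 6, from 141629452 to 141686646 and from 141805438 to 141856284. Nr1h4 lies on chromosome 10 from 89454234 to 89533645 and Nr0b2 on chromosome 4 from 133553376 to 133556686.

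Of the 9 genes, 7 had a listed upstream sequence. Shown are the upstream sequences of the 5 genes with over 100 bases outside the annotated gene. They are RefSeq sequences (GRCm38.p6), printed 5′ to 3′ in the direction of the gene, and end at the base before the annotated gene. The windows hold 250 bases for Cyp8b1, Slc10a1 and Nr0b2, 184 for Slco1b2 and 186 for Slco1a4. Capitals mark matches on either strand to 5 motifs.
Cyp8b1, chr9:121916306-121916555, minus strand: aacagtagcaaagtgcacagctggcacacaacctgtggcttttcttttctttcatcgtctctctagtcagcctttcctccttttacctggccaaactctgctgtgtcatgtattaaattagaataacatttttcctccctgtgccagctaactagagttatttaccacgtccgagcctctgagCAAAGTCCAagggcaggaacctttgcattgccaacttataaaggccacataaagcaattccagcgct
Slc10a1, chr12:80968706-80968955, minus strand: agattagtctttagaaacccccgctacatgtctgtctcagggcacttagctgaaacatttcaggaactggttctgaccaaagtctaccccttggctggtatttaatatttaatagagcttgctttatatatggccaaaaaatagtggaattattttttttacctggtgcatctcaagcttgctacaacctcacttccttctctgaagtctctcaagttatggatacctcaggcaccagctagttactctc
Slco1b2, chr6:141629268-141629451, plus strand: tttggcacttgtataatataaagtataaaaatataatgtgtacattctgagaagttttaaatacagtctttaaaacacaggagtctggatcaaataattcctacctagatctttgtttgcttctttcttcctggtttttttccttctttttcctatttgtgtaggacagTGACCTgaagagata
Slco1a4, chr6:141856285-141856470, minus strand: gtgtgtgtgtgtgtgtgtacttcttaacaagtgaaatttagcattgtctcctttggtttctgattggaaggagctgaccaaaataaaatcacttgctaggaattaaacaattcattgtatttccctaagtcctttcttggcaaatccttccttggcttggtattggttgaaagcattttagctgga
Nr0b2, chr4:133553126-133553375, plus strand: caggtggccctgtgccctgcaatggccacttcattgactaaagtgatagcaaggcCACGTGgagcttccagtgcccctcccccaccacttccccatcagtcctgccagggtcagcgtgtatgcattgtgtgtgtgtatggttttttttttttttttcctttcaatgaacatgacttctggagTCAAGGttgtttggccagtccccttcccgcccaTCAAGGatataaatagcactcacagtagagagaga

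The 5 motifs searched on both strands were the nuclear receptor half-site AGGTCA, the NR5A2 core TCAAGG, the HNF4A site CAAAGTCCA, the glucocorticoid receptor half-site AGAACA and the E-box CACGTG. The Cyp8b1 window held the HNF4A site 1 time, which 0.384% of all 32851 windows of that length in the table hold. The Slco1b2 window held AGGTCA 1 time on the other strand, as 10.5% of windows of its length do. The Nr0b2 window held TCAAGG 2 times and CACGTG 1 time, found in 12.5% and 6.02% of windows. No matches of different motifs overlapped, and the letters of the 5 motifs were not in the Slc10a1 and Slco1a4 windows.

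Of 8 measured hepatocyte genes, 7 had means of 6 or above, among them Alb at 13.7, Ttr at 13.4 and Apoa1 at 13.7, and 1 (Ass1) was under 4. Markers of bile duct cells, 6 of 6 measured, and of intestine, 5 of 6 including Fgf15, had means under 4, whereas 7 of 10 Kupffer cell (liver macrophage) genes were at 6 or above. After group means were removed, the first principal component held 27.4% of the variance of bright probe sets, and its 12 lowest arrays were 1 from each group. These 12 arrays had upper quartiles lower than the rest of their groups by a mean difference of -0.27 (SD 0.08, over 12 groups), and results that changed without them are named below. They were AIN-76A control C, water 10 ppb C, water 100 ppb D and food 10 ppb D, LRD-5001 control B, water 10 ppb F, water 100 ppb D and food 10 ppb C, and, among injected mice, saline F, dexamethasone C, arsenite D and both agents E. In whole liver, fewer cells of a type and less RNA per cell cannot be told apart.

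Among the synthesis genes, Cyp7a1 was the most variable of the 9 genes, with an SD of 1.08 between arrays of the same group. On AIN-76A its means were 6.55 ± 1.28 (SD, n = 5) in controls, 5.90 ± 0.57 at 10 ppb in water, 4.84 ± 2.46 (n = 4) at 100 ppb in water and 6.81 ± 0.55 at 10 ppb in food. On LRD-5001 they were 8.12 ± 0.56, 7.68 ± 0.49, 7.76 ± 0.31 and 7.82 ± 0.67 in the same order (n = 5 each). After injection they were 7.50 ± 1.46 with saline, 7.63 ± 0.85 with dexamethasone, 5.78 ± 0.77 with arsenite and 7.75 ± 1.57 with both (n = 5 each). The 4 LRD-5001 groups thus stood in the upper part of the order and the 4 AIN-76A feeding groups in the lower part, with the undisturbed chow controls highest and the AIN-76A group at 100 ppb lowest.

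Cyp8b1 varied with an SD of 0.58 within groups. Its means on AIN-76A were 9.95 ± 0.58 (SD) in controls, 10.39 ± 0.17 at 10 ppb in water, 9.81 ± 0.74 at 100 ppb and 10.15 ± 0.34 in food, and on LRD-5001 10.27 ± 0.18, 10.22 ± 0.25, 10.39 ± 0.13 and 10.12 ± 0.50. In the injected groups they were 9.86 ± 0.64 with saline, 10.99 ± 0.16 with dexamethasone, 9.46 ± 0.99 with arsenite and 9.68 ± 1.16 with both. All 5 dexamethasone arrays lay above all arrays of the next group in the order, and this was the single one of 11 neighbour pairs of Cyp8b1 whose ranges were apart. For each of the other 8 genes, 0 of 11 neighbouring pairs in the order had ranges apart.

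Cyp27a1 and Baat, the side-chain and conjugation enzymes, were steadier, with SDs of 0.23 and 0.30 within groups. Cyp27a1 means ran from 10.18 ± 0.37 (SD, n = 4) on AIN-76A with 100 ppb in water to 11.10 ± 0.18 (n = 5) after dexamethasone. Its other AIN-76A feeding groups lay at 10.58 ± 0.17 in controls, 10.59 ± 0.19 at 10 ppb in water and 10.52 ± 0.06 in food, and the LRD-5001 groups at 10.84 ± 0.20 in controls, 10.71 ± 0.18 and 10.85 ± 0.25 at 10 and 100 ppb in water and 10.74 ± 0.21 in food. Saline, arsenite and both agents gave 10.33 ± 0.24, 10.50 ± 0.03 and 10.80 ± 0.42. Baat means spanned 0.40 in all, from 8.32 ± 0.27 in AIN-76A controls to 8.73 ± 0.19 after dexamethasone, beside its SD of 0.30 within groups. The group given both agents had a Baat SD of 0.54, with array E at 7.48 and the others from 8.55 to 8.80.

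Of the carriers, Slc10a1 means on AIN-76A were 11.43 ± 0.31 (SD) in controls, 11.80 ± 0.33 and 11.07 ± 0.50 at 10 and 100 ppb in water and 11.54 ± 0.13 in food. The 4 LRD-5001 means lay between 11.26 ± 0.16 and 11.42 ± 0.11, and the injected groups at 11.27 ± 0.42 with saline, 11.72 ± 0.25 with dexamethasone, 11.10 ± 0.50 with arsenite and 10.93 ± 0.45 with both. Its highest group was therefore AIN-76A with 10 ppb in water and its lowest the group given both injections. Slco1b2 means were 10.68 ± 0.29, 10.83 ± 0.15, 10.65 ± 0.49 and 10.69 ± 0.11 on AIN-76A and 11.12 ± 0.07, 11.005 ± 0.07, 11.07 ± 0.16 and 10.95 ± 0.25 on LRD-5001, each in the order control, 10 and 100 ppb in water and food. With saline, dexamethasone, arsenite and both they were 10.64 ± 0.19, 10.22 ± 0.28, 10.59 ± 0.35 and 9.87 ± 0.53, so the order ran from the chow groups at the top to the dexamethasone groups at the bottom.

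Slco1a4 means were 4.38 ± 1.03 (SD), 4.97 ± 0.47, 4.18 ± 0.70 and 4.34 ± 0.45 on AIN-76A and 6.96 ± 0.97, 6.44 ± 0.43, 6.84 ± 0.39 and 6.35 ± 0.83 on LRD-5001, in the order control, 10 and 100 ppb in water and food. The 4 chow groups were the highest of the 12. The injected AIN-76A mice had means of 4.85 ± 0.76 with saline, 5.76 ± 0.61 with dexamethasone, 4.39 ± 0.84 with arsenite and 5.36 ± 1.86 with both. The wide spread of the last group came with 1 array, replicate E, at 8.28, the highest of all 59 arrays and 1 of the 12 arrays apart.

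Of the regulators, Nr1h4 had means that spanned 0.80, beside an SD of 0.29 within groups. They ran from 7.22 ± 0.21 (SD) on LRD-5001 with 100 ppb in water to 8.02 ± 0.25 after dexamethasone. The other LRD-5001 means were 7.59 ± 0.31 in controls, 7.425 ± 0.25 at 10 ppb in water and 7.31 ± 0.40 in food. Injected mice had 7.69 ± 0.17 with saline, 7.55 ± 0.26 with arsenite and 7.94 ± 0.37 with both agents. The 4 AIN-76A feeding means lay between 7.56 ± 0.27 and 7.64 ± 0.37. Nr0b2 ranged more widely, from 5.59 ± 0.87 after dexamethasone to 8.35 ± 0.37 on LRD-5001 with 10 ppb in water. Its means were 8.08 ± 0.25, 7.91 ± 0.45, 7.32 ± 0.76 and 8.27 ± 0.21 on AIN-76A (control, 10 and 100 ppb in water, food) and 7.76 ± 0.37, 8.35 ± 0.37, 8.24 ± 0.14 and 7.95 ± 0.38 on LRD-5001. Saline, arsenite and both injections gave 7.29 ± 0.93, 6.75 ± 1.14 and 6.15 ± 0.57, so all 4 injected groups stood below the 8 feeding groups in the order. The injected and feeding groups belong to different experiments, so injection and experiment cannot be told apart here.

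**Figure D1:**
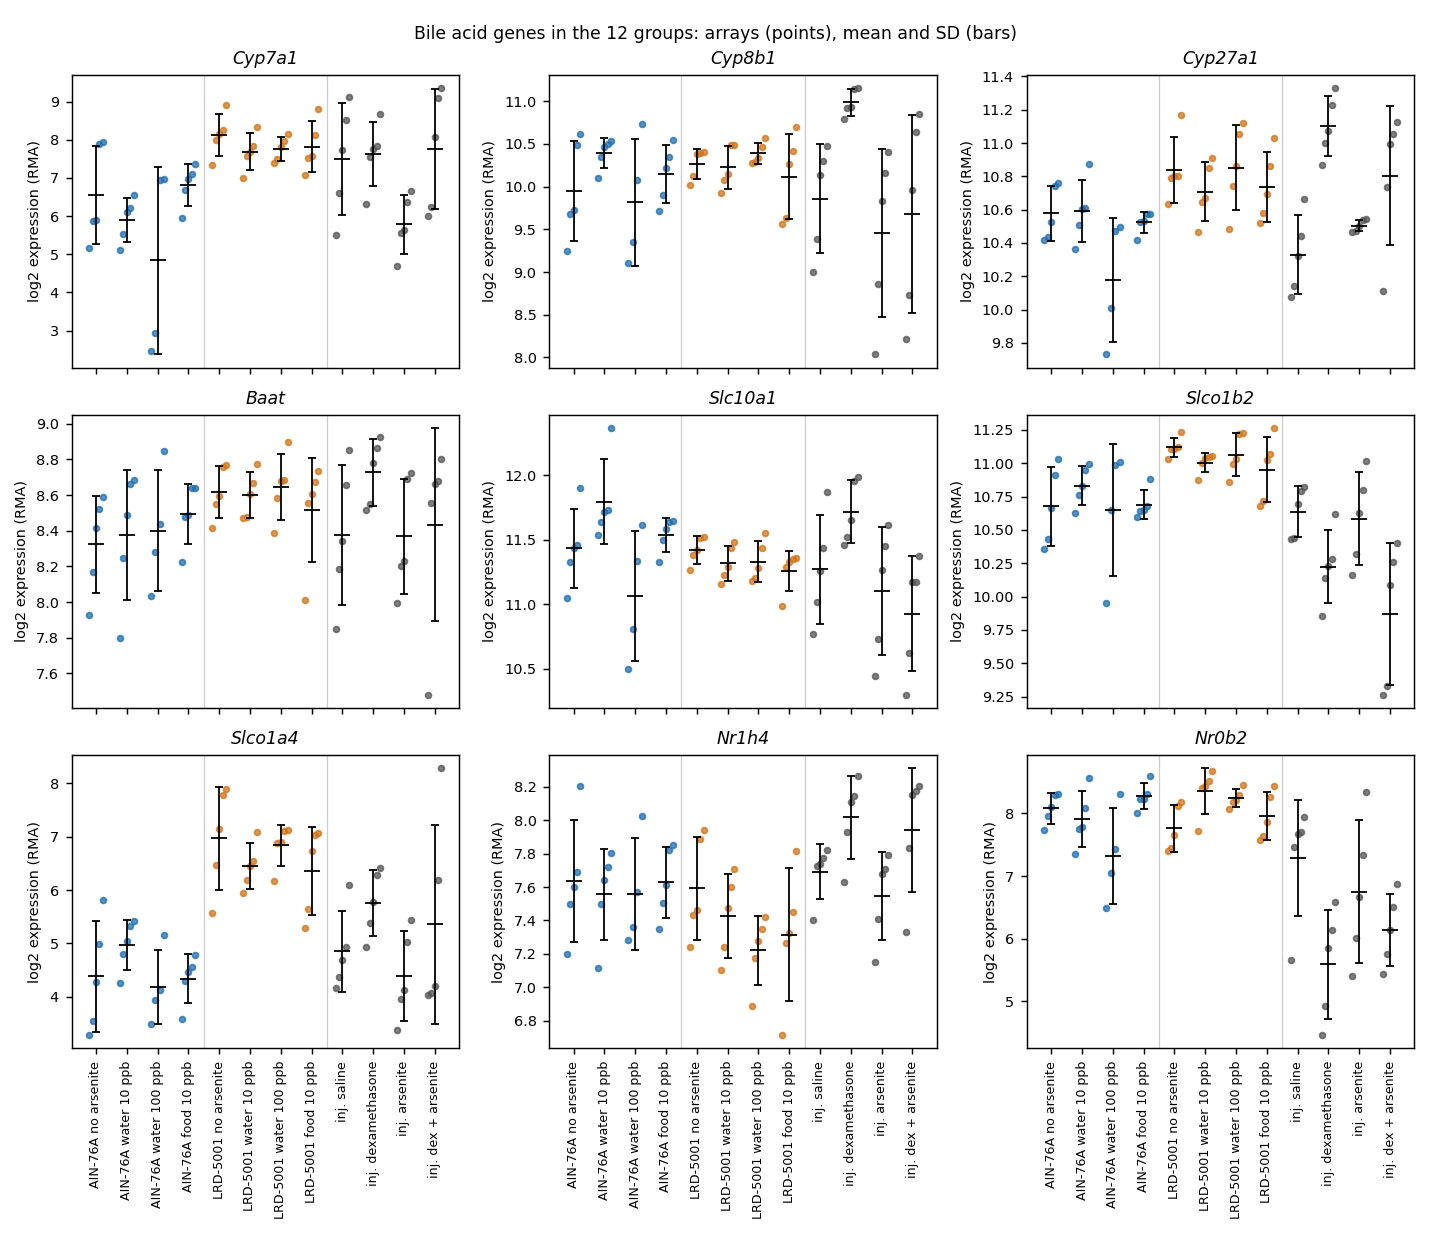
Log2 expression of the 9 genes (1 panel each) on every array of the 12 groups; blue points are AIN-76A and orange points LRD-5001 mice of the 5-week experiment, grey points are injected mice, and black bars are the group mean with its SD. Slco1a4 and Cyp7a1 sit higher in the chow groups, Nr0b2 sits lowest after dexamethasone at 5.59, and 2 arrays of AIN-76A with 100 ppb in water have Cyp7a1 at 2.47 and 2.95.

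The diets were compared at each arsenite level and averaged over the 4 levels, and an average can lean on 1 level. Averaged over exposures, Slco1a4 was 4.53-fold higher on LRD-5001, Cyp7a1 3.54-fold, and Cyp27a1 and Slco1b2 about equally, at 1.25-fold each. Thus 4 of 9 genes rose and 0 fell at an adjusted p under 0.05 (limma, Benjamini-Hochberg over all probe sets), while 4.26% of all probe sets were called in this comparison. The log2 differences were 2.18 (SE 0.21, adjusted p = 4.59e-09) for Slco1a4, 1.82 (SE 0.31, adjusted p = 1.18e-04) for Cyp7a1, 0.32 (SE 0.07, adjusted p = 0.00252) for Cyp27a1 and 0.32 (SE 0.07, adjusted p = 0.00383) for Slco1b2. The same 4 genes were called without the 12 arrays apart, and each was called in all 39 fits that left out 1 array. By level, Cyp27a1 differed by 0.26 in controls, 0.12 and 0.68 at 10 and 100 ppb in water and 0.21 in food. It was called at 100 ppb alone. Slco1b2 differed by 0.44, 0.17, 0.42 and 0.26 in the same order and was called at no single level. The other 5 genes did not pass, with differences of 0.17 for Cyp8b1, 0.20 for Baat, -0.13 for Slc10a1, -0.21 for Nr1h4 and 0.18 for Nr0b2. The median difference was 0.196 over the 9 genes and -0.006 over all 18193 genes.

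Between control mice without arsenite, 1 of 9 genes, Slco1a4, was called, where 0.568% of all probe sets were. On AIN-76A the Slco1a4 values were 5.81 (B), 4.98 (C), 3.56 (D), 3.29 (E) and 4.28 (F), and on LRD-5001 they were 5.57 (B), 7.78 (C), 7.13 (D), 6.46 (E) and 7.88 (F). Only AIN-76A array B and LRD-5001 array B overlapped, and LRD-5001 array B is 1 of the 12 arrays apart. The difference was 2.58 (SE 0.42, adjusted p = 5.11e-04), and it passed in all 10 fits that left out 1 of these arrays (highest adjusted p 0.00461). With the spread taken from these 10 arrays alone, the adjusted p was 0.0844.

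For Cyp7a1 the control values were 5.86 (B), 5.17 (C), 7.93 (D), 5.89 (E) and 7.89 (F) on AIN-76A and 7.33 (B), 8.25 (C), 8.15 (D), 7.98 (E) and 8.90 (F) on LRD-5001. AIN-76A arrays D and F reached into the chow range and the other 3 lay below it. The difference of 1.57 (SE 0.60) did not pass, with an adjusted p of 0.436, although a second Cyp7a1 probe set gave 1.90 (SE 0.47, adjusted p = 0.0485). Slco1b2 values were 10.91 (B), 10.35 (C), 11.03 (D), 10.66 (E) and 10.43 (F) on AIN-76A and 11.11 (B), 11.12 (C), 11.23 (D), 11.04 (E) and 11.10 (F) on LRD-5001. These groups did not overlap, as for 1.85% of all probe sets, but AIN-76A array D and chow array E were nearly level, and the difference of 0.44 (SE 0.14) had an adjusted p of 0.229.

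At 10 ppb in water 0 of 9 genes were called, where 0.344% of probe sets were and 7.46% had an unadjusted p under 0.05. There 3 of 9 genes had that unadjusted p: Slco1a4 (1.47, SE 0.42, adjusted p = 0.167) and Cyp7a1 (1.78, SE 0.60, adjusted p = 0.350) with chow arrays above all AIN-76A arrays, and Slc10a1 with chow arrays below (-0.48, SE 0.16, adjusted p = 0.299), while 1.76% of all probe sets did not overlap. With the spread of these groups alone, Slco1a4 and Cyp7a1 passed here, with adjusted p of 0.0287 and 0.0236. At 10 ppb in food 1 of 9 genes, Slco1a4, was called (2.01, SE 0.42, adjusted p = 0.0161), against 0.295% of probe sets. Its AIN-76A food values were 4.47 (A), 4.30 (C), 3.60 (D), 4.79 (E) and 4.56 (F), and all lay below the LRD-5001 values of 7.07 (B), 5.64 (C), 5.30 (D), 7.02 (E) and 6.73 (F), as 1.43% of probe sets did in either direction. That call was lost without AIN-76A array D or without LRD-5001 array B, E or F, with adjusted p up to 0.0904.

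At 100 ppb in water, 4 of 9 genes rose on LRD-5001, where 2.05% of probe sets were called: Slco1a4 by 2.65 (SE 0.45, adjusted p = 6.29e-04), Cyp7a1 by 2.92 (SE 0.64, adjusted p = 0.00914), Cyp27a1 by 0.68 (SE 0.14, adjusted p = 0.00619) and Nr0b2 by 0.93 (SE 0.25, adjusted p = 0.0417). The AIN-76A values of Cyp7a1 in this group were 6.97 (A), 2.47 (B), 2.95 (C) and 6.95 (D), against 7.51 (A), 7.82 (B), 7.38 (D), 7.96 (E) and 8.14 (F) on LRD-5001. Arrays B and C were more than 4 units below every chow array, and arrays A and D less than 1 unit below the lowest. Cyp7a1 and Slco1a4 were the genes whose groups did not overlap here, as for 4.3% of probe sets. Without AIN-76A array B the calls fell to 1 of 9 (Slco1a4), and without array C to 2 of 9 (Slco1a4 and Cyp27a1), with Cyp7a1 differences of 2.14 (adjusted p = 0.103) and 2.30 (adjusted p = 0.0647). Without array A 5 of 9 genes were called, Cyp8b1 being the added one (0.88, adjusted p = 0.0380). Nr0b2 passed in 1 of 9 such fits, and without the 12 arrays apart its adjusted p was 0.0512. At the other levels its diet differences were -0.32 in controls, 0.44 at 10 ppb in water and -0.32 in food, none of them called.

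**Figure D2:**
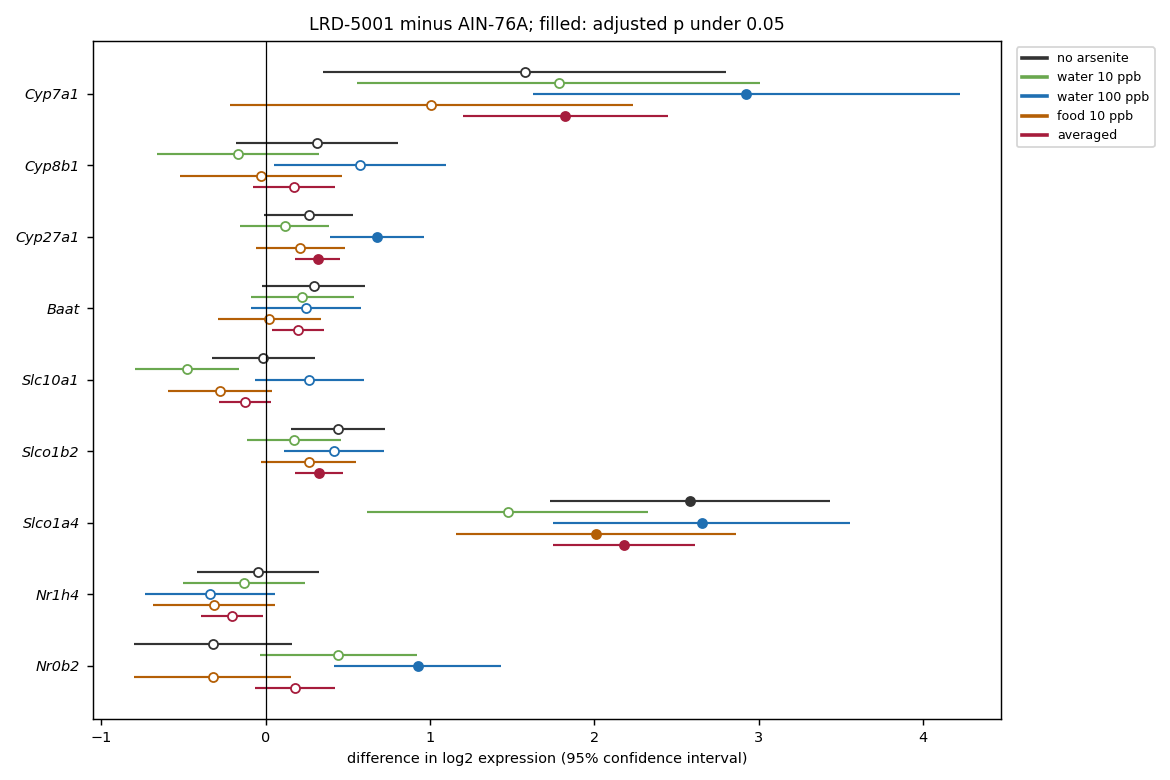
Difference in log2 expression between LRD-5001 and AIN-76A for each of the 9 genes, at the 4 arsenite levels and averaged, with 95% confidence intervals; filled points have an adjusted p under 0.05 and open points do not. Slco1a4 lies between 1.47 and 2.65 at every level, Cyp7a1 between 1.008 and 2.92, and the intervals of Slc10a1, Nr1h4 and Cyp8b1 lie on both sides of 0 for most levels.

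A wider list of 42 genes of bile acid synthesis, transport and control, of which 40 were measured, was followed beside the 9. Averaged over exposures, 17 of 40 rose on LRD-5001, 3 fell and 20 did not pass, where 4.26% of all probe sets were called. The 6 with the smallest p were Abcc3 (MRP3, a carrier of conjugates to sinusoidal blood; 2.78, SE 0.16), Acox2 (the peroxisomal oxidase that shortens the bile acid side chain; 0.61, SE 0.05), Abcc2 (MRP2, the canalicular carrier of conjugates; 0.56, SE 0.06), Nr1i3 (CAR, a nuclear receptor of foreign compounds; 1.11, SE 0.16), Abcg5 (of the canalicular sterol pump; 0.64, SE 0.11) and Mafg (a transcriptional repressor downstream of FXR; 0.45, SE 0.08), with adjusted p from 1.44e-14 for Abcc3 to 4.63e-04 for Mafg. Enzymes that rose in the same comparison included Cyp7b1 (0.48, SE 0.09, adjusted p = 5.71e-04) and Akr1d1 (1.03, SE 0.21, adjusted p = 0.00200), the steroid reductase of the pathway. The 3 that fell were Cyp39a1, the hydroxylase of an oxysterol made mainly in brain (-0.88, SE 0.24, adjusted p = 0.0223), Slc10a2, the ileal bile acid carrier, near background here at a mean of 2.33 (-0.31, SE 0.07, adjusted p = 0.00824), and Hnf4a (-0.25, SE 0.07, adjusted p = 0.0194). The median difference of the 40 genes was 0.199. Between controls, with 0.568% of all probe sets called, 4 of 40 rose and 0 fell (Abcc3, Acox2, Abcc2 and Nr1i3), and at 100 ppb in water, with 2.05% called, 10 rose and 2 fell.

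Other gene groups moved with the diet, in the averaged comparison in which 4.26% of all probe sets were called. Of 11 measured targets of the foreign-compound receptors PXR and CAR, 9 rose on LRD-5001 averaged over exposures and 0 fell, led by Cyp3a11 at 3.004 (SE 0.32, adjusted p = 3.30e-08). Of 16 clock genes 5 rose and 3 fell, among them Dbp (2.85, SE 0.36) and Arntl (-1.15, SE 0.12), and the labels used here give no time of day. Of 15 acute phase genes, made by hepatocytes during inflammation, 8 fell and 0 rose, and 4 of 10 Kupffer cell genes, 2 of 7 neutrophil genes and 1 of 8 hepatocyte genes fell. That hepatocyte gene was Hnf4a, already counted in the wider list, as was Abcb1a of the PXR and CAR targets. Of the genes of liver zones, 4 of 8 pericentral and 2 of 6 periportal genes rose. The mean of the 15 acute phase genes lay between 9.14 and 9.40 on the 5 LRD-5001 control arrays and between 9.27 and 12.16 on the AIN-76A controls. The part of these groups in the differences of the bile acid genes was not tested.

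Each arsenite exposure was compared with the control of its diet. In all 6 comparisons 0 of 9 genes were called by limma, and 0% of all probe sets were called in 5 of them and 0.00888% at 100 ppb on AIN-76A. At an unadjusted p under 0.05 there were 1, 4 and 0 of 9 genes for 10 ppb in water, 100 ppb in water and 10 ppb in food on AIN-76A, and 1, 1 and 0 on LRD-5001. Over all probe sets the matching shares were 4.84%, 8.87% and 3.63%, and 2.34%, 2.34% and 2.29%.

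The 4 genes at 100 ppb on AIN-76A all had lower means than the controls. Cyp7a1 differed by -1.71 (SE 0.64, adjusted p = 0.376), Nr0b2 by -0.76 (SE 0.25, adjusted p = 0.285), Cyp27a1 by -0.40 (SE 0.14, adjusted p = 0.335) and Slc10a1 by -0.37 (SE 0.16, adjusted p = 0.491). For Nr0b2 the exposed arrays were 8.31 (A), 6.49 (B), 7.05 (C) and 7.43 (D), and the controls 8.31 (B), 7.73 (C), 7.96 (D), 8.30 (E) and 8.11 (F). Exposed array A lay near the highest control, and the other 3 lay below all controls. Arrays B and C, with the low Cyp7a1 values, also had the highest means of the 15 acute phase genes of any array, 12.41 and 12.38, against 9.85 on array A and 11.39 on array D. Whether the acute phase level had a part in these values was not tested. Without array A, Cyp7a1 (-2.42, adjusted p = 0.0458) and Nr0b2 (-1.09, adjusted p = 0.0103) were called, and without the 12 arrays apart Cyp7a1 alone was (-2.76, adjusted p = 0.0361). Of 9 limma fits that left out 1 array, only the fit without array A called either gene. Across the 9 fits the Cyp7a1 difference was as small as -0.92, with adjusted p up to 0.727. For Nr0b2 these were -0.49 and 0.630.

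Between the doses, 1 of 9 genes differed on AIN-76A, where 0.713% of probe sets were called: Slc10a1 fell by 0.73 (SE 0.16, adjusted p = 0.0264) from 10 to 100 ppb. Its values were 11.73 (A), 12.37 (C), 11.72 (D), 11.54 (E) and 11.64 (F) at 10 ppb and 11.61 (A), 10.50 (B), 10.81 (C) and 11.34 (D) at 100 ppb. The groups overlapped through array A at 100 ppb, and the call was lost without 10 ppb array C or D or without 100 ppb array B or C (adjusted p up to 0.229). In the same comparison 3 of 7 neutrophil genes rose, with 6 of 7 at a mean under 4 over all arrays, and the mean of the 7 ran from 2.33 to 2.85 at 10 ppb and from 2.56 to 4.30 at 100 ppb. The acute phase genes had 0 of 15 called and 15 of 15 higher at 100 ppb (median difference 0.87, beside 0.002 over all genes), with array means from 9.88 to 11.45 at 10 ppb and from 9.85 to 12.41 at 100 ppb. Their part in the Slc10a1 difference was not tested. Without 100 ppb array A, Cyp27a1, Cyp8b1 and Nr0b2 also fell, making 4 of 9. On LRD-5001 0 of 9 genes differed between the doses, with 0% of probe sets called by limma and 0 of 9 genes at an unadjusted p under 0.05, a level that 1.84% of probe sets reached. In the wider list, Akr1c6 (-0.67, SE 0.16, adjusted p = 0.0349) and Abcg8, partner of Abcg5 (-1.08, SE 0.27, adjusted p = 0.0470), fell from 10 to 100 ppb on AIN-76A, beside 0.713% of all probe sets called.

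Food and water at 10 ppb gave 0 of 9 called genes on either diet, with 0% of probe sets called, and 0 of 9 genes had an unadjusted p under 0.05, as did 5.82% of probe sets on AIN-76A and 1.62% on LRD-5001 (limma). The interactions of diet with the 3 exposures gave 0 of 9 calls each by limma, again with 0% of probe sets called, and at an unadjusted p under 0.05 there were 2, 2 and 0 genes for 10 and 100 ppb in water and for food, beside 4.14%, 6.12% and 2.5% of probe sets. The interaction with the smallest p was that of Nr0b2 at 100 ppb, 1.25 (SE 0.34, adjusted p = 0.565), where its mean was lower than the control's on AIN-76A and higher on LRD-5001 (0.48, SE 0.24). It passed when AIN-76A array A was left out (1.57, adjusted p = 0.0260). That was 1 of 19 limma fits that left out 1 array, and the others had adjusted p up to 0.865.

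At 8 hours after injection, dexamethasone changed 1 of 9 genes, where 1.74% of probe sets were called. Cyp27a1 rose 1.71-fold, by 0.77 (SE 0.16, adjusted p = 0.0110). Its saline values were 10.67 (A), 10.44 (B), 10.14 (C), 10.08 (E) and 10.32 (F), and its dexamethasone values 10.87 (A), 11.07 (C), 11.33 (D), 11.23 (E) and 11.003 (F). Every dexamethasone array lay above every saline array, as for 3.81% of probe sets, and the call was kept in all 10 fits that left out 1 array. Cyp8b1 likewise did not overlap, with saline values of 10.48 (A), 10.14 (B), 8.995 (C), 9.39 (E) and 10.30 (F) against 10.93 (A), 11.14 (C), 11.16 (D), 10.79 (E) and 10.92 (F). Its difference of 1.13 (SE 0.48) had an adjusted p of 0.359 with the spread of all 4 injected groups, and of 0.0410 with the spread of these 2 groups.

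Nr0b2 had the lowest group mean of its order after dexamethasone. The saline arrays were 7.46 (A), 7.70 (B), 5.66 (C), 7.68 (E) and 7.94 (F), and the dexamethasone arrays 5.85 (A), 6.14 (C), 6.59 (D), 4.93 (E) and 4.47 (F). Saline array C fell within the dexamethasone range and the other 4 saline arrays lay above it. The difference was -1.70 (SE 0.52, adjusted p = 0.131), and it passed in a fit of all 59 arrays (adjusted p = 0.00301), among probe sets with a mean of at least 6 (0.0420) and without saline array C (-2.10, adjusted p = 0.0360). That was 1 of 10 limma fits that left out 1 array, and the others had adjusted p up to 0.345. The other 6 genes had differences from -0.41 (Slco1b2) to 0.90 (Slco1a4), with adjusted p of 0.490 or more.

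Arsenite injection gave 0 of 9 called genes by limma, with 0% of probe sets called and 3.14% at an unadjusted p under 0.05, a level that 1 of 9 genes reached. That gene was Cyp7a1, with arsenite values of 6.38 (A), 5.57 (B), 6.65 (D), 4.68 (E) and 5.65 (F) against saline values of 7.73 (A), 8.53 (B), 5.51 (C), 9.13 (E) and 6.59 (F). Saline arrays C and F lay within the arsenite range and the other 3 above it, and the difference was -1.71 (SE 0.70, adjusted p = 1.00). The saline group itself was compared with undisturbed AIN-76A controls in a fit of all 59 arrays, and 0 of 9 genes were called by limma, as were 0% of probe sets, and 4.42% of probe sets had an unadjusted p under 0.05. Nr0b2 had the one unadjusted p under 0.05 there, with a difference of -0.79 (SE 0.38, adjusted p = 1.00). Injection, length of the diet and experiment differ together between these groups, so their parts cannot be told apart.

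With both agents 0 of 9 genes were called against saline, where 0.926% of probe sets were called and 9.78% had an unadjusted p under 0.05, a level that 3 of 9 genes reached. Slco1b2 values were 9.33 (A), 10.40 (C), 10.08 (D), 9.26 (E) and 10.26 (F) with both agents and 10.70 (A), 10.82 (B), 10.44 (C), 10.43 (E) and 10.79 (F) with saline. The groups did not overlap, as for 2.18% of probe sets, though array C of the group given both lay close to the lowest saline arrays. The difference of -0.77 (SE 0.21) had an adjusted p of 0.112, and passed in a fit of all 59 arrays (0.00571), among probe sets with a mean of at least 6 (0.0354) and on a second Slco1b2 probe set (-0.85, SE 0.19, adjusted p = 0.0335). Cyp27a1 (0.47, SE 0.16, adjusted p = 0.213) was called when array E of this group was left out (0.65, adjusted p = 0.00673), and so too without all 12 arrays apart (0.65, adjusted p = 0.0279).

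Adding arsenite to dexamethasone changed 0 of 9 genes by limma, with 0% of probe sets called, and with 2 of 9 genes and 3.87% of probe sets at an unadjusted p under 0.05. Those were Slc10a1 (-0.79, SE 0.24, adjusted p = 0.999) and Cyp8b1 (-1.31, SE 0.48, adjusted p = 0.999). Slc10a1 lay at 11.66 (A), 11.96 (C), 11.46 (D), 11.52 (E) and 11.99 (F) with dexamethasone and at 10.63 (A), 11.17 (C), 11.37 (D), 10.30 (E) and 11.17 (F) with both, without overlap, as for 0.824% of probe sets. Adding dexamethasone to arsenite gave 0 of 9 calls, where 0.881% of probe sets were called and 10.2% had an unadjusted p under 0.05. The 3 of 9 genes at that level were Slco1b2 (-0.72, SE 0.21, adjusted p = 0.155), Cyp7a1 (1.97, SE 0.70, adjusted p = 0.283) and Nr1h4 (0.39, SE 0.16, adjusted p = 0.395). The interaction of the agents gave 0 of 9 calls by limma with 0% of probe sets called, and 1 of 9 genes (Cyp27a1) and 3.46% of probe sets had an unadjusted p under 0.05.

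**Figure D3:**
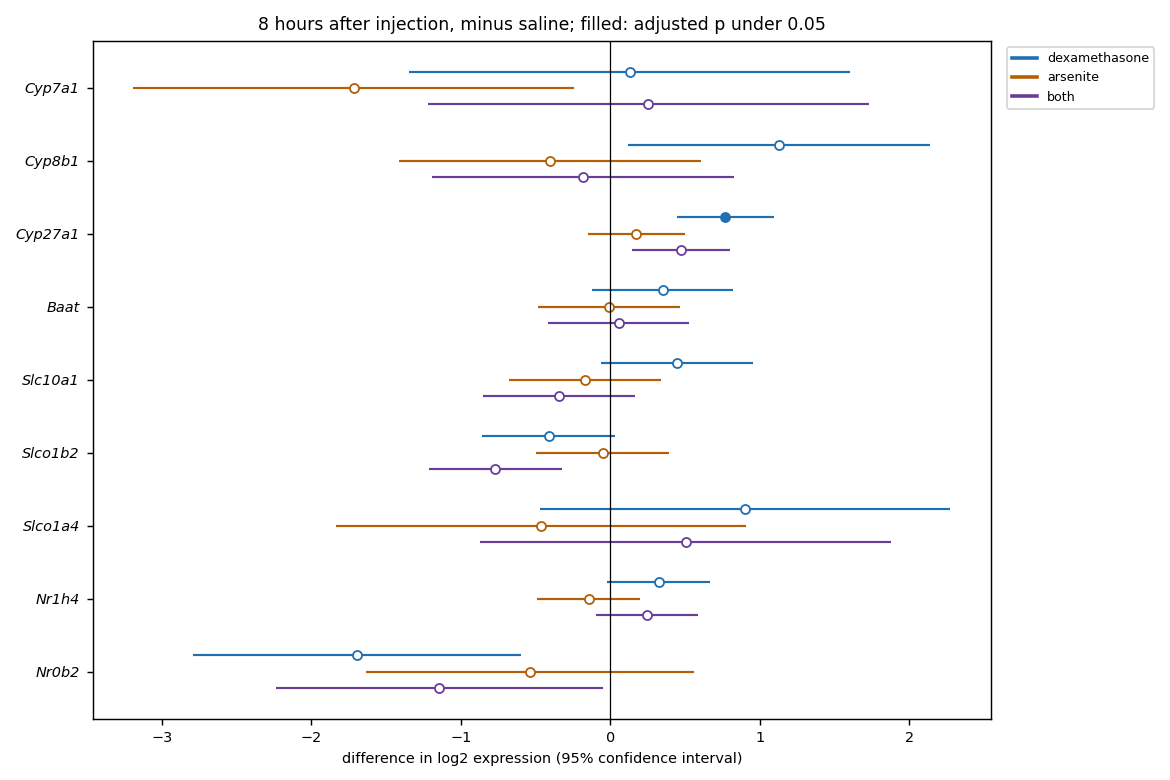
Difference in log2 expression from saline 8 hours after dexamethasone, arsenite or both, for each of the 9 genes, with 95% confidence intervals; the filled point, Cyp27a1 after dexamethasone at 0.77, has an adjusted p under 0.05. Nr0b2 lies below 0 after all 3 injections, at -1.70 after dexamethasone, and the intervals of Cyp7a1 and Slco1a4 are the widest with Nr0b2's.

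In the wider list of 40 measured genes, 1 rose and 0 fell after dexamethasone, a share near the 1.74% of all probe sets called. It was Cyp39a1 (2.26, SE 0.32, adjusted p = 6.45e-04), the gene that had fallen on LRD-5001, and it also rose with both agents (1.60, SE 0.32, adjusted p = 0.0156). With both agents, where 0.926% of all probe sets were called, 3 fell: Hsd3b7, the second enzyme of the pathway (-0.9996, SE 0.22, adjusted p = 0.0291), Akr1c6 (-0.96, SE 0.20, adjusted p = 0.0242) and Abcd3, a peroxisomal membrane carrier (-0.58, SE 0.13, adjusted p = 0.0320). Adding dexamethasone to arsenite, with 0.881% of all probe sets called, raised Cyp39a1 (2.13) and Mafg (1.03) and lowered Abcd3 (-0.57). Arsenite alone changed 0 of 40. Beside these, 0 of 15 acute phase genes and 0 of 11 PXR and CAR targets were called after dexamethasone, 3 of 16 clock genes rose and 1 of 8 hepatocyte genes fell, beside the same 1.74%.

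The genes also varied between arrays of the same group, and some of them varied together. With group means removed, 9 of 36 pairs of the 9 genes had an adjusted p under 0.05 (Pearson correlation over 59 arrays, 100000 permutations within groups, adjusted over the 36 pairs), and all 9 correlations were positive. The share of correlated pairs among all genes was not computed, so whether 9 of 36 is unusual is not known. Of the genes nearest to Cyp8b1 among 3814 others, Galm and Cyp2d10 had r 0.84 and 0.82 with it, group means removed. Cyp8b1, the cholic acid enzyme, stood in 4 of the 9 pairs. With Slc10a1 its r was 0.73 and rho 0.68 (permutation p = 1.00e-05 for both, the smallest that the permutations can give, adjusted p = 3.60e-04), 0.70 without the 2 arrays farthest from the median of Cyp8b1, 0.58 among the 39 feeding arrays, 0.83 among the 20 injection arrays and 0.72 without the 12 arrays apart. With Slco1b2 its r was 0.73 and rho 0.65 (permutation p = 3.00e-05 for both, adjusted p = 3.60e-04), 0.69 without 2 arrays, 0.63 and 0.79 in the experiments and 0.72 without the arrays apart. The corresponding values with Nr0b2 were r 0.59, rho 0.54 (permutation p = 1.20e-04 and 2.70e-04, adjusted p = 0.00108 and 0.00243), 0.54, 0.53, 0.61 and 0.58. Its remaining partner, Cyp27a1, had r 0.59 and rho 0.59 (permutation p = 2.00e-05 and 3.00e-05, adjusted p = 3.60e-04), 0.55 without 2 arrays, 0.51 and 0.69 in the experiments and 0.49 without the arrays apart.

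The carriers Slc10a1 and Slco1b2 were related with r 0.57 and rho 0.48 (permutation p = 9.70e-04 and 0.00244, adjusted p = 0.00698 and 0.0125), and Slco1b2 and Nr0b2 with r 0.50 and rho 0.47 (permutation p = 0.00164 and 0.00198, adjusted p = 0.00984 and 0.0119). Without the 12 arrays apart 9 of 36 pairs passed again, 6 of them the same. The 3 lost were Slco1b2 with Nr1h4 (r 0.46, then 0.35), Cyp27a1 with Slc10a1 (0.41, then 0.29) and Baat with Nr1h4 (0.39, then -0.16). Slc10a1 and Nr0b2, both partners of Cyp8b1, did not pass with each other (r 0.43, rho 0.37, permutation p = 0.0196 and 0.0205, adjusted p = 0.0706 and 0.0739). Among the 3 gained, Slco1a4 with Slc10a1 went from 0.21 to 0.64, with Nr1h4 from 0.29 to 0.58 and with Slco1b2 from 0.18 to 0.52. By rho over all 59 arrays, Slco1a4 passed with Nr1h4 (0.46, permutation p = 0.00199, adjusted p = 0.0119). It did not pass by rho with Slc10a1 (0.32) or Slco1b2 (0.36). In the feeding and injection experiments the r of Slco1a4 were 0.69 and -0.21 with Nr1h4. They were 0.43 and 0.043 with Slc10a1, and 0.33 and 0.071 with Slco1b2. The corepressor Nr0b2 and its target Cyp7a1 had r 0.25 and rho 0.10 (permutation p = 0.136 and 0.523, adjusted p = 0.287 and 0.649), which did not pass.

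The acute phase level moved against several of the genes, but how many of all genes move against it was not computed. Whether the relation is particular to these genes is therefore not known. This relation was chosen after the values were seen, and was computed for the 9 genes against the mean of the 15 acute phase genes, of which 0 had a mean under 4, with group means removed. Slc10a1 had r -0.60 and rho -0.61 (permutation p = 5.00e-05 and 1.00e-05, adjusted over the 9 relations 2.25e-04 and 9.00e-05), -0.53 without the 2 arrays farthest in acute phase level, -0.64 in the feeding and -0.60 in the injection experiment. Cyp8b1 had r -0.56 and rho -0.59 (permutation p = 3.20e-04 and 1.30e-04, adjusted p = 9.60e-04 and 5.70e-04), -0.53 without 2 arrays, and -0.76 and -0.45 in the experiments. For Slco1a4 they were r -0.56 and rho -0.54 (permutation p = 5.00e-05 and 1.90e-04, adjusted p = 2.25e-04 and 5.70e-04), -0.51, -0.47 and -0.70. Slco1b2 followed with r -0.48 and rho -0.49 (permutation p = 0.00247 and 0.00162, adjusted p = 0.00556 and 0.00364), -0.45, -0.63 and -0.34. Nr0b2 passed by r (-0.35, permutation p = 0.0188, adjusted p = 0.0338) and not by rho (-0.28, permutation p = 0.0501, adjusted p = 0.0818). Cyp7a1 (r -0.35, permutation p = 0.0388, adjusted p = 0.0582; rho -0.22, permutation p = 0.169, adjusted p = 0.217) and Nr1h4 (r -0.31, permutation p = 0.0485, adjusted p = 0.0624; rho -0.28, permutation p = 0.0545, adjusted p = 0.0818) did not pass, nor did Cyp27a1 (r -0.09) and Baat (r -0.07). Without the 12 arrays apart the r of Slc10a1, Cyp8b1, Slco1a4 and Slco1b2 were -0.79, -0.68, -0.73 and -0.66.

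**Figure D4:**
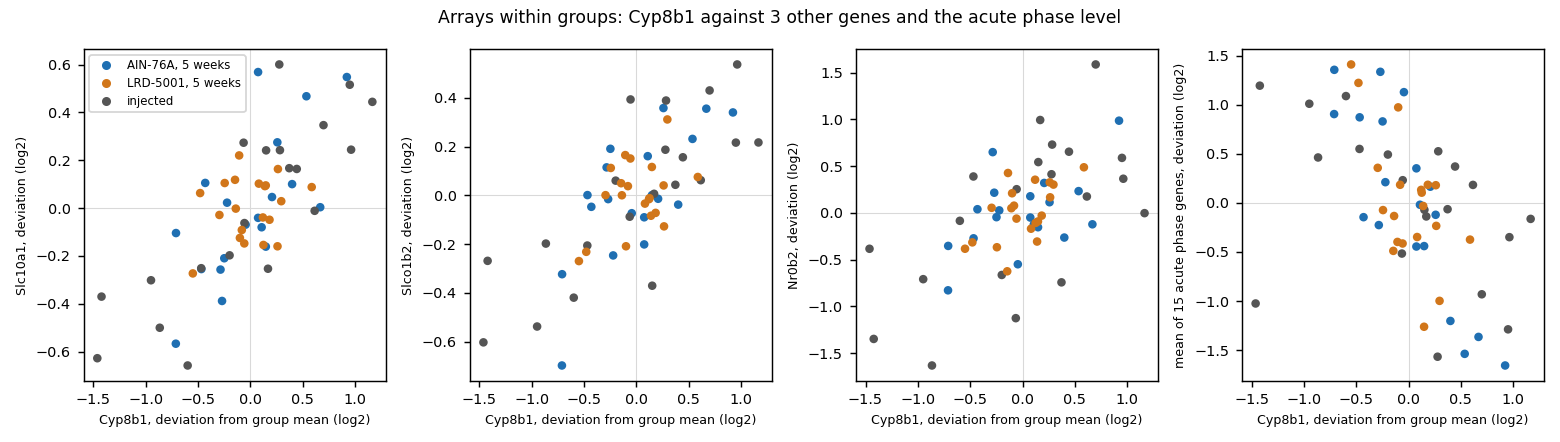
Deviation of each of the 59 arrays from its group mean (log2), with Cyp8b1 on the x axis and Slc10a1, Slco1b2, Nr0b2 and the mean of the 15 acute phase genes on the y axes; colours mark the experiment and diet. The points rise together in the first 3 panels (r 0.73, 0.73 and 0.59) and fall in the last (r -0.56).

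Values on single arrays of some groups follow as examples, and not every group is given. In the arsenite injection group, arrays A and E had acute phase means of 12.26 and 12.37, Cyp8b1 at 8.86 and 8.04 and Slc10a1 at 10.45 and 10.73. Arrays B, D and F of that group had acute phase means of 10.24, 9.89 and 11.11, with Cyp8b1 at 10.16, 10.41 and 9.83 and Slc10a1 at 11.45, 11.62 and 11.27. On LRD-5001 with 10 ppb in food, arrays C and D had acute phase means of 11.87 and 12.06 and Cyp8b1 at 9.64 and 9.57, and the other 3 arrays had acute phase means from 9.38 to 10.27 and Cyp8b1 from 10.27 to 10.70. Slc10a1 was 10.99 on array D there but 11.33 on array C, within the 11.29 to 11.36 of the other 3 arrays, and array C is 1 of the 12 arrays apart. Another exception was array E of the group given both agents, 1 of the 12 arrays apart, with Cyp8b1 at 8.22 at the lowest acute phase mean of its group, 10.24. The saline group was mixed. Its arrays C and E had acute phase means of 11.86 and 11.95 and Cyp8b1 at 8.995 and 9.39. Arrays A and F, at 11.58 and 11.77, had the highest Cyp8b1 of that group, 10.48 and 10.30. Array B, at 9.83, had Cyp8b1 at 10.14.

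The genes whose levels were most like each of the 9 were found by Pearson correlation over the 59 arrays, among 3814 genes with a mean of at least 6. These correlations are descriptions, since the arrays share groups and diets. For Cyp7a1 they were Marveld1 (0.68), Lancl1 (0.66) and Upp2 (0.65), for Cyp8b1 Cyp2d10 (0.82), Galm (0.79) and Cyp2d9 (0.77), and for Cyp27a1 Aldh1l1 (0.84), Rarres1 (0.76) and Gstm2 (0.72). Slc10a1 was nearest to Timd2 (0.74), Gckr (0.73) and Coq8a (0.72), Slco1b2 to Aqp9 (0.89), Sult2a8 (0.88) and Nlrp6 (0.87), and Slco1a4 to Cth (0.84), Cyp3a11 (0.84) and Gsta4 (0.79). Nr0b2 was nearest to Depp1 (0.88), Osgin1 (0.83) and Hsd3b7 (0.80), the last a gene of the wider list, and Nr1h4 to Slc25a47 (0.68), Mtss1 (0.67) and Cert1 (0.65). Baat was nearest to Mxi1 (0.73), Nox4 (0.72) and Ubr3 (0.72), which were 0.49, 0.43 and 0.43 without the 12 arrays apart.

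Further probe sets of the same genes were read beside the representative ones. The second Cyp7a1 probe set gave an averaged diet difference of 1.84 (SE 0.24, adjusted p = 1.36e-06), beside 1.82 on the first. A second Baat probe set gave 0.15 (SE 0.04, adjusted p = 0.0278), so that Baat passed on that probe set and not on the representative one. Of 4 further Slco1b2 probe sets, 2 gave averaged diet differences of 0.36 (adjusted p = 0.00467) and 0.56 (adjusted p = 0.00808). The other 2, with means of 2.64 and 2.24, and a second Cyp27a1 probe set with a mean of 1.77 were near background and gave no call.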

How the data were processed

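Liver RNA of 59 samples was measured on 1-colour Affymetrix arrays. The authors deposited 1 log2 value for each probe set and array, and the submitters' processing notes name RMA. Its software and version are not given in the sources used. RMA summarises and normalizes the arrays together and draws dim probe sets towards each other, so differences of dim genes can be understated. Array medians ran from 2.42 to 2.59, and the closest pair of arrays had a correlation of 0.994. Precision depends on how many arrays a group has.

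The 64 control probe sets among 45101 were dropped, and no filter or further normalization was applied to the other 45037. Linear models of limma 3.58.1 (R 4.3.3) gave 1 mean per group, in 1 model for the 39 feeding arrays of 8 groups and another for the 20 injection arrays of 4 groups, so each SE uses the spread over all groups of its experiment. Saline was set against undisturbed controls in 1 fit of all 59 arrays. P-values were adjusted by Benjamini-Hochberg over all probe sets, with a threshold of 0.05. Relations between genes used 100000 permutations within groups. The scripts were tested on simulated data.

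The genes, the lists, the contrasts and the rules were chosen with earlier results of these data known. The lists cover the wider bile acid pathway, liver cell types and zones, the clock, the acute phase and PXR and CAR targets. In the wider list the genes named are up to 6 with the smallest p in a comparison, and for the 9 genes the 3 most similar genes. All others were named after their values were seen. Replicate letters were not taken as pairs: deviations of arrays with the same letter in other groups had a median correlation of 0.002 (range -0.68 to 0.72), beside -0.008 for other letters, and 17 of 59 arrays were closest to their own letter. Alternatives tried were 1 probe set per gene, 1 fit of all arrays, the groups compared alone, a replicate block, a variance trend, quantile normalization, a minimum mean of 6, other probe sets, the arrays apart as a block, and leaving out the 12 arrays apart or each array in turn.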

Additional observations from a re-analysis of the deposited data

Results flagged for a closer look

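Of 108 combinations of gene and group examined for a single array far from the rest of its group, 10 stood out, where chance alone gives about 1 in 20, or 5.4. Of the 10 arrays, 5 are among the 12 arrays apart: saline F, both agents E, AIN-76A water 10 ppb C, LRD-5001 food C and LRD-5001 water 10 ppb F. Among the injected mice, Nr0b2 was 5.66 on saline array C, with the other 4 arrays from 7.46 to 7.94, and Nr1h4 was 7.40 on saline array F, with the others from 7.73 to 7.82. With both agents, Baat was 7.48 on array E, the others lying between 8.55 and 8.80. On AIN-76A, Slc10a1 was 12.37 on array C at 10 ppb in water (others 11.54 to 11.73), the highest Slc10a1 value of all arrays, and Slco1b2 was 10.88 on array A at 10 ppb in food (others 10.60 to 10.68). On LRD-5001 with 10 ppb in food, Baat was 8.01 on array C (others 8.55 to 8.73) and Slc10a1 was 10.99 on array D (others 11.29 to 11.36). At 10 ppb in water on that diet, Slco1b2 was 10.88 on array F (others 11.01 to 11.05) and Nr0b2 was 7.73 on array D (others 8.41 to 8.68). At 100 ppb Slco1a4 was 6.17 on array F (others 6.88 to 7.13). None of the 36 interaction tests of the 9 genes passed.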

How the results depend on the processing

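The averaged diet differences of Slco1a4, Cyp7a1, Cyp27a1 and Slco1b2 and the rise of Cyp27a1 after dexamethasone kept their direction and call on the representative probe set in all settings that tested them, but Slco1a4 is not among probe sets with a mean of at least 6. Called genes are counted below for other settings, and the shares of all probe sets called under those settings are not given here. Whether a gained or lost call follows a general shift in calls is therefore not known. With the spread of the compared groups alone, the called genes of 9 were 0 for diet in controls, 2, 1 and 0 at 10 and 100 ppb in water and in food, 0 for 100 against 10 ppb on AIN-76A and 2 for dexamethasone. Under the minimum mean, Slco1a4, the gene called for diet in controls and in food, was not tested, and 0 of the other genes were called there. That setting gave 2 for dexamethasone and 1 with both agents. One fit of all arrays gave 0 for diet in food, 0 between the doses, 2 for dexamethasone, 1 with both agents and 1 for dexamethasone added to arsenite (Slco1b2). Without the 12 arrays apart there was 1 for 100 ppb on AIN-76A, 1 with both agents and 1 for dexamethasone added to arsenite (Nr1h4, 0.58, adjusted p = 0.0411). The replicate block gave 0 for diet in food (Slco1a4 2.02, adjusted p = 0.0539) and 0 between the doses (Slc10a1 -0.75, adjusted p = 0.0577), and Nr0b2 lost its call between diets at 100 ppb (0.82, adjusted p = 0.0917), as it did in 1 fit of all arrays (0.275), with the spread of the compared groups alone (0.230), under quantile normalization (0.0871) and without the arrays apart (0.0512). The cause was not tested. Leaving out 1 array gave from 1 to 5 called genes for diet at 100 ppb, 0 to 1 in food, 0 to 2 for 100 ppb on AIN-76A, 0 to 4 between the doses, 0 to 1 for the diet interaction at 100 ppb, 1 to 2 for dexamethasone and 0 to 1 with both agents. Signs turned on probe sets near background: -0.0048 for Cyp27a1 and -0.0175 for Slco1b2 in the averaged diet difference, -0.108 and -0.0178 for Slco1b2 between diets in controls and 0.26 with both agents. Of 24 differences followed, 0 turned sign on the same probe set. With 4 or 5 arrays a group, small differences are limited by the spread, and differences of genes near background may be understated.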
